A study of Homo sapiens with 54 samples.

Results

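The matrix metalloproteases (MMP), the ADAMTS proteases (a disintegrin and metalloprotease with thrombospondin motifs) and the tissue inhibitors of metalloproteases (TIMP) were followed through losses of the splicing factor paralogs TRA2A and TRA2B. Members were taken by gene name, as every gene called MMP, ADAMTS or TIMP followed by a number, which gave 45 of the 55906 genes in each table: 22 MMP, 19 ADAMTS and 4 TIMP genes. The rule itself uses no measured value. Gene expression was measured by poly-A RNA-seq in 4 human cancer cell lines, as 54 libraries in 18 groups of 3 replicates. A549 and NCI-H23 are lung adenocarcinoma lines that stably carried Zim3-dCas9, a nuclease-dead Cas9 fused to a repressor for CRISPR interference, and were collected on day 5 after sgRNA infection as a Control KD, a single knockdown of either paralog (TRA2A KD, TRA2B KD) or a knockdown of both genes (TRA2A/B DKD). LN229 and LN319 are glioma lines that received Cas9 and an sgRNA by lentivirus and were collected on day 7. Their Luc groups expressed luciferase and were Control KO, TRA2A KO or TRA2B KO, and their TRA2B-OE groups expressed TRA2B from a cDNA and were Control KO or TRA2A KO. Controls carried the same (d)Cas9 and a control sgRNA, so no group lacked the editing machinery. The cells were infected populations and not single clones, so cells with an intact target may remain in a knockout group. The labels do not say that replicates came from separate cultures, and p-values then measure the spread between these libraries, which may be technical.

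MMPs are zinc proteases that cut collagens, gelatin, proteoglycans and cell surface proteins. Most are secreted as inactive zymogens, and a membrane-type subgroup (MMP14, MMP15, MMP16, MMP17, MMP24 and MMP25) stays attached to the cell surface. ADAMTS proteases are secreted enzymes that process procollagens, cut aggrecan and versican, or trim proteins such as von Willebrand factor. TIMPs bind the active site of these proteases and block it, and TIMP2 also takes part in the activation of the MMP2 zymogen by MMP14. Transcription of several secreted MMPs is known to respond to AP-1, the dimer of FOS and JUN proteins.

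Values are in TPM, which give a gene's transcripts as a share of all transcripts in the library after division by length, so levels of different genes in 1 library can be set side by side. TPM keep no read depth, so the depth behind each value is unknown and no counting error can be given. Differences are given as log2 fold changes ± SE of scaled TPM plus 0.1, which understates the change of low genes. They were tested with limma in 1 fit per cell line, with Benjamini-Hochberg adjustment over all genes tested, and a gene was called at an adjusted p under 0.05. Every p below is such an adjusted p unless it is named as unadjusted. With 3 libraries against 3, an exact permutation test of a single gene cannot go below 0.1.

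Some of the labels were checked with the perturbed genes. In the lung lines TRA2A and TRA2B were at 6.54 to 25.2% of their control means in the groups that targeted them. In LN319 the targeted gene was at 33.2% (TRA2A) and 35.1% (TRA2B) of Luc control, and TRA2A in TRA2B-OE TRA2A KO at 52.8% of its own control. In LN229 the RNA was less reduced, to 62.9% for TRA2A and 66.0% for TRA2B, and TRA2A in the TRA2B-OE TRA2A KO libraries was at 87.2% of control, which was not called (adjusted p = 0.0793). An edited gene can still be transcribed, so RNA level does not measure loss of protein in a Cas9 knockout. The values for TRA2B-OE TRA2A KO are relative to TRA2B-OE Control KO. The paper reports strongly lowered TRA2A protein after TRA2B overexpression in NCI-H23 and LN319, so this baseline may differ from that of the Luc groups. TRA2B was at 374% of Luc control in the LN229 and 873% in the LN319 TRA2B-OE controls. Among cell type markers, the leukocyte genes PTPRC and CD3E stayed under 2 TPM in all 4 lines and the monocyte gene CD14 reached at most 4.54 TPM, whereas CD68, which the list also holds, had medians of 26.3 (A549), 7.42 (NCI-H23), 23.6 (LN229) and 26.7 TPM (LN319). LN229 had the glial genes NES, S100B and SOX2 at medians of 256, 255 and 64.7 TPM, but OLIG2 at 7.79, GFAP at 2.66, BCAN at 0.631, OLIG1 at 0.427 and AQP4 at 0.0432 TPM, so its markers also matched a glial label only in part. LN319 had SOX2 at 361 TPM but GFAP at 1.83 and OLIG2 at 0.0253, together with the epithelial genes CDH1 at 123 and KRT8 at 117 TPM. The lung factor NKX2-1 had a median of 10.6 TPM in LN319, above its medians of 0.721 (NCI-H23) and 0.00492 TPM (A549) in the lung lines. The markers of LN319 thus matched its glioma label only in part. The third A549 Control KD library correlated least with the other A549 libraries (median r = 0.837), and the first LN229 Luc Control KO library had an MMP sum of 1165 TPM against 882 and 924 in the other Luc controls. Values that moved most without either library are given both ways.

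The 9 MMP genes of 1 cluster, in the order MMP7, MMP20, MMP27, MMP8, MMP10, MMP1, MMP3, MMP12 and MMP13, lay on chromosome 11, from base 102520508 to base 102955732 (GRCh38, Gencode v44, while the TPM used Gencode v34). Of the 45 members, 26 had a promoter in the RefSeq table used (GRCh38.p14). The others, among them MMP1, MMP2, MMP3, MMP9 and TIMP2, were not searched, so nothing is known here of their motifs. The AP-1 motif TGANTCA, on either strand of the 250 bases before the start, was in 4 of them (ADAMTS12, MMP7, MMP10 and MMP20) and in 6.57% of all 35116 promoters. The TATA motif TATAAA on the gene strand was in 6 (MMP7, MMP8, MMP10, MMP20, MMP21 and MMP26) and in 6.8% of all promoters. The 120 bases before the start are printed for MMP7 and MMP10, which are cluster genes holding both motifs, and for TIMP3, ADAMTS3 and ADAMTS18, which were called below and held neither. Capitals mark the AP-1 motif and the TATA motif, and all sequences run 5′ to 3′ on the strand of the gene.

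MMP7: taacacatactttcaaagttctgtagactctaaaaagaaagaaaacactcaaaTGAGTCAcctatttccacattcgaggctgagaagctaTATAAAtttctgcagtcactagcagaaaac
MMP10: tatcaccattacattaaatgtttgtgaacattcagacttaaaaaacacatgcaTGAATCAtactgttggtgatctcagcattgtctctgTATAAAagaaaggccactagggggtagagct
TIMP3: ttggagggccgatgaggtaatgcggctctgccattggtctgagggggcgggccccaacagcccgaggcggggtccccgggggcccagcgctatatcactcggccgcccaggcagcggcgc
ADAMTS3: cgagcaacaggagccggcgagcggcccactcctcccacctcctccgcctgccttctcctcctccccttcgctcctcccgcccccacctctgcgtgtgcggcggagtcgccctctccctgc
ADAMTS18: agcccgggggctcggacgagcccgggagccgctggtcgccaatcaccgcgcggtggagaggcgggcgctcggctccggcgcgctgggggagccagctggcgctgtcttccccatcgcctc

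These windows were chr11:102530748-102530867 for MMP7 and chr11:102780629-102780748 for MMP10, both on the minus strand. TIMP3 was read at chr22:32801585-32801704 on the plus strand, ADAMTS3 at chr4:72569222-72569341 and ADAMTS18 at chr16:77435035-77435154, both on the minus strand. In MMP7 and in MMP10 the AP-1 motif began 67 bases before the start, and the TATA motif began 30 bases before it in MMP7 and 31 in MMP10. The 250 bases before the start held 33.6% G and C in MMP7 and 34.4% in MMP10, against 72.4% in TIMP3, 75.2% in ADAMTS3, 74.4% in ADAMTS18 and a median of 58% over all promoters. These are descriptions of sequence, and no binding was measured.

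In the control libraries a TIMP had the highest mean of the family in every line, and the proteases beside them differed from line to line. TIMP1 in A549 was at 167 ± 51.6 TPM (SD, n = 3, as for all means here), with 187, 206 and 109 TPM in the 3 libraries, the third being the library that stood apart. TIMP2 followed at 84.8 ± 6.78 TPM, then ADAMTS10, a protease of the fibrillin microfibril, at 69.2 ± 22.5, the membrane-type MMP24 at 41.1 ± 8.05 and MMP7 (matrilysin) at 40.5 ± 3.83 TPM. In this order TIMP2 and ADAMTS10 overlapped in range, as did MMP24 and MMP7. NCI-H23 held TIMP1 at 262 ± 32.2 TPM, and the next members were far below it: MMP17 at 17.9 ± 1.16, MMP15 at 10.6 ± 0.222, TIMP2 at 8.92 ± 0.555 and ADAMTS18 at 6.33 ± 0.906 TPM, with no overlap between neighbours in this order.

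In the glioma lines TIMP3 and MMP14 were also among the 5 highest members. In LN229, TIMP1 was at 1611 ± 259 TPM and MMP2 (gelatinase A) at 625 ± 112 TPM. TIMP3, the inhibitor that binds to matrix, was at 460 ± 40.4, TIMP2 at 343 ± 10.4 and MMP14, the membrane-bound activator of MMP2, at 172 ± 4.05 TPM, again with no overlap between neighbours. In LN319 the order was TIMP2 at 355 ± 28.7, TIMP1 at 309 ± 38.0, TIMP3 at 183 ± 16.2, MMP17 at 120 ± 2.55 and MMP14 at 110 ± 13.0 TPM, where TIMP2 and TIMP1 overlapped in range, as did MMP17 and MMP14. MMP2 in LN319 was at 42.2, 41.1 and 37.9 TPM. The 4 tables were made separately and levels were not tested between lines.

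**Figure D1:**
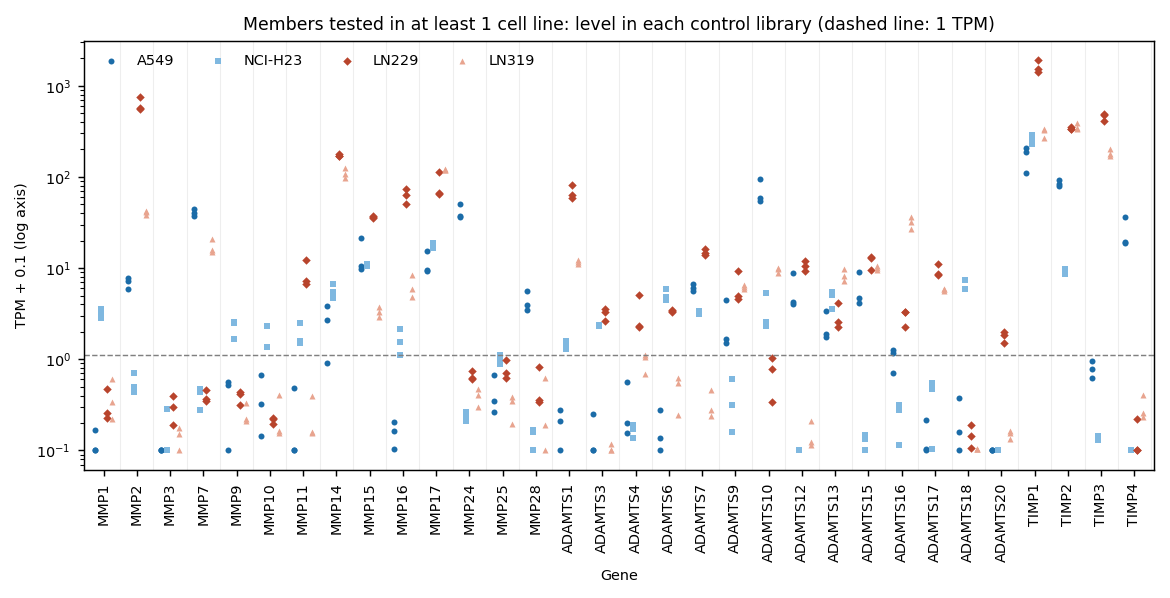
Levels of the members in the control libraries of the 4 cell lines, as TPM + 0.1 on a log axis, with each point a library and a dashed line at 1 TPM. TIMP1 reached 1904 TPM in LN229, and members such as MMP9 stayed under 1 TPM in 3 of the 4 lines.

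Of the 45 members, 16 were expressed at 1 TPM or more in 4 or more libraries of LN319 and so were tested, as were 17 of A549, 18 of NCI-H23 and 23 of LN229. Only ADAMTS13, MMP14, MMP15, MMP17, TIMP1 and TIMP2 passed this filter in all 4 lines, and 13 passed in none. ADAMTS2, ADAMTS14, MMP8, MMP12, MMP13, MMP20, MMP21, MMP26 and MMP27 were under 1 TPM in every one of the 54 libraries. Within a line, 25 members of LN319 never reached 1 TPM, against 23 each of A549 and NCI-H23 and 19 of LN229. Among these, ADAMTS5, ADAMTS19, MMP26 and MMP27 were listed at 0 throughout A549, MMP26, MMP27 and TIMP4 throughout NCI-H23, and MMP8 and MMP26 throughout LN319. MMP9 (gelatinase B) passed only in NCI-H23, and TIMP4 and MMP24 only in A549. Several members share their place with another gene: TIMP1 lies within SYN1, TIMP3 within SYN3 and TIMP4 within SYN2, each on the other strand, and MMP24 overlaps MMP24OS, ADAMTS7 MORF4L1 and ADAMTS13 REXO4 in the same way. The libraries kept strand, but whether the quantification used it is not given in the sources used here, so values of these members could include reads of the other strand. TIMP2 overlaps CEP295NL on the same strand, which a strand setting would not separate.

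Whether 1 paralog can stand in for the other is asked in the lung lines by the single knockdowns, the double knockdown and the difference between them. All 3 are compared with the same Control KD libraries, so their values for a member are not independent. Neither single knockdown called any member. In A549 the share of all tested genes called was 0.207% with TRA2A KD and 0.341% with TRA2B KD, and 0 of 17 members were called by limma in either, with 3 members at an unadjusted p under 0.05 in each. In NCI-H23 it was 0.976% and 0.196%, and 0 of 18 members were called in either, with 2 and 4 at an unadjusted p under 0.05. A value near the threshold was MMP9 in NCI-H23, at 2.45, 2.37 and 1.58 TPM in control and 0.811, 1.09 and 0.626 TPM with TRA2A KD. These did not overlap, and the log2 fold change was -1.24 ± 0.30 (limma, adjusted p = 0.0915). With TRA2B KD, MMP9 was at 2.94, 2.49 and 3.09 TPM, with no overlap in the other direction (log2 fold change 0.31 ± 0.30, adjusted p = 0.746). ADAMTS1, a protease of versican and aggrecan, was at 1.21, 1.5 and 1.35 TPM in NCI-H23 control and at 3.62, 3.44 and 2.48 TPM with TRA2B KD (log2 fold change 1.05 ± 0.31, adjusted p = 0.297).

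In A549 the TRA2A/B DKD called 5 of 17 members, a share of 29.4%, where 30.6% of all genes tested were called. The share of members was therefore near that of genes at large. TIMP2, ADAMTS15, MMP15 and MMP24 fell and ADAMTS7 rose. TIMP2 was at 78.5, 83.9 and 92.0 TPM in control and at 61.3, 62.4 and 60.6 TPM in the DKD. No DKD library reached a control library, and the log2 fold change was -0.54 ± 0.08 (limma, adjusted p = 0.000358). The single knockdowns kept TIMP2 at 77.0 to 80.3 TPM (TRA2A KD) and 80.5 to 85.3 TPM (TRA2B KD). The median log2 fold change over the 17 members was -0.34, against 0.03 over all genes tested.

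The 3 falling proteases had their highest control value in the library that stood apart. ADAMTS15, a proteoglycan-cutting ADAMTS, was at 4.05, 4.58 and 9.05 TPM in control and 2.40, 2.49 and 2.18 TPM in the DKD, a log2 fold change of -1.27 ± 0.23 (adjusted p = 0.00171). Without the third control library it was -0.99 and still called. MMP15, a membrane-type protease that can activate the MMP2 zymogen, was at 9.55, 10.3 and 21.3 TPM in control and 7.09, 6.79 and 7.02 TPM in the DKD, a log2 fold change of -0.95 ± 0.20 (adjusted p = 0.00457) and of -0.65 without that library. MMP24, a membrane-type protease best known from neural tissue, was at 37.2, 35.8 and 50.4 TPM against 24.5, 26.3 and 24.2 TPM (log2 fold change -0.78 ± 0.11, adjusted p = 0.000319, and -0.69 without that library). All 3 were lower than every control library in each DKD library. ADAMTS7, a protease of cartilage oligomeric matrix protein, was at 5.94, 6.64 and 5.44 TPM in control and at 9.07, 10.4 and 9.28 TPM in the DKD, again without overlap (log2 fold change 0.59 ± 0.18, adjusted p = 0.0295), a call kept in 8 of 14 alternative settings.

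The other abundant members of A549 did not pass the test. TIMP1 was at 192, 195 and 232 TPM in the DKD (log2 fold change 0.27 ± 0.25, adjusted p = 0.444), and TIMP4 at 18.4, 20.2 and 19.7 TPM against 18.7, 19.0 and 36.4 TPM in control (-0.35 ± 0.18, adjusted p = 0.171). MMP7, whose promoter holds the AP-1 motif printed above, was at 40.4, 44.4 and 36.7 TPM in control and at 48.6, 34.7 and 48.6 TPM in the DKD, with a log2 fold change of 0.03 ± 0.16 (adjusted p = 0.925). MMP2 was at 7.73, 7.08 and 5.84 TPM against 5.01, 7.25 and 4.47 TPM (-0.40 ± 0.26, adjusted p = 0.269). MMP14 was low and scattered, at 2.63, 3.75 and 0.801 TPM in control and 2.09, 1.59 and 1.84 TPM in the DKD. Several of these values rest on the third control library: without it the log2 fold change was -0.08 for TIMP1 (limma, adjusted p = 0.478), -0.10 for TIMP4 (adjusted p = 0.575), -0.58 for MMP2 (adjusted p = 0.0918) and -0.89 for MMP14 (adjusted p = 0.133).

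In NCI-H23 the TRA2A/B DKD called 9 of 18 members (50%), against 43.2% of all genes tested. Of these, 7 fell (TIMP2, ADAMTS3, ADAMTS18, ADAMTS6, MMP9, MMP17 and MMP15) and 2 rose (MMP3 and ADAMTS1). MMP3 passed the filter mainly through the DKD libraries, where it is high, so its call carries no weight, and without it 8 of 17 members (47.1%) were called. The median over the 18 members was -0.32 on the log2 scale, against 0.02 over all genes. TIMP2 was at 8.61, 8.6 and 9.56 TPM in control and 3.08, 3.19 and 3.27 TPM in the DKD, and the groups were far apart relative to their spread. The log2 fold change was -1.61 ± 0.11 (limma, adjusted p = 1.09e-06). TRA2A KD alone left TIMP2 at 7.33, 8.07 and 8.42 TPM and TRA2B KD alone at 10.5, 10.05 and 9.01 TPM.

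In the same comparison 3 ADAMTS genes fell. ADAMTS18, an orphan ADAMTS protease, was at 7.38, 5.78 and 5.83 TPM in control and at 2.39, 1.98 and 2.18 TPM in the DKD (log2 fold change -1.64 ± 0.18, adjusted p = 3.55e-05). ADAMTS3, a procollagen N-proteinase that also processes VEGF-C, was at 2.20, 2.21 and 2.25 TPM against 0.559, 0.598 and 0.673 TPM (-1.85 ± 0.23, adjusted p = 9.84e-05). Both are the genes whose GC-rich promoter windows without either motif are printed above. ADAMTS6, a close relative of ADAMTS10, was at 4.73, 4.37 and 5.82 TPM against 2.45, 3.39 and 3.09 TPM (-0.88 ± 0.19, adjusted p = 0.00352). In none of the 3 did the groups overlap.

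Among the MMPs of NCI-H23, MMP17, a membrane-type protease held by a lipid anchor, was at 18.7, 18.5 and 16.6 TPM in control and 11.4, 6.77 and 12.5 TPM in the DKD (log2 fold change -1.01 ± 0.17, adjusted p = 0.00068). MMP9 was at 0.883, 0.611 and 0.968 TPM in the DKD, below every control library (-1.42 ± 0.30, adjusted p = 0.00302) and overlapping TRA2A KD alone. MMP15 differed little, at 10.5, 10.9 and 10.4 TPM against 8.69, 10.3 and 10.1 TPM (-0.29 ± 0.10, adjusted p = 0.0362), and was called under only 5 of 14 alternative settings (counts of settings leave out a limit on the size of the fold). MMP14, with control values of 4.57, 6.60 and 5.34 TPM, was at 5.27, 3.36 and 5.91 TPM in the DKD and did not pass (-0.35 ± 0.33, adjusted p = 0.418). TIMP1 did not pass either, at 228, 291 and 269 TPM against 318, 234 and 288 TPM (-0.07 ± 0.13, adjusted p = 0.718).

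MMP3 (stromelysin 1), which lies in the chromosome 11 cluster, was listed at 0, 0.183 and 0 TPM in NCI-H23 control and at 2.58, 3.40 and 4.91 TPM in the DKD. It passed the filter through these 3 libraries and 1 TRA2B KD library at 2.52 TPM, the other TRA2B KD libraries being at 0.259 and 0.123 TPM. Such a member had to differ, and its call (adjusted p = 0.00309) is given as a description. Its fitted log2 fold change ran from 2.03 to 5.09 over the settings tried with controls at or near 0, so its levels describe it better than a fold. Its neighbours are named after their values were seen. MMP1 (interstitial collagenase) was at 2.75, 2.95 and 3.48 TPM in control and 3.51, 4.58 and 4.94 TPM in the DKD, without overlap but not called (0.33 ± 0.18, adjusted p = 0.153). MMP10 (stromelysin 2), which carries the promoter printed above, was at 2.22, 1.26 and 1.27 TPM against 0.810, 1.32 and 0.848 TPM. ADAMTS1 was at 2.55, 5.98 and 3.23 TPM in the DKD and rose (1.23 ± 0.31, adjusted p = 0.00774), though its values with TRA2B KD alone covered much of the same range.

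**Figure D2:**
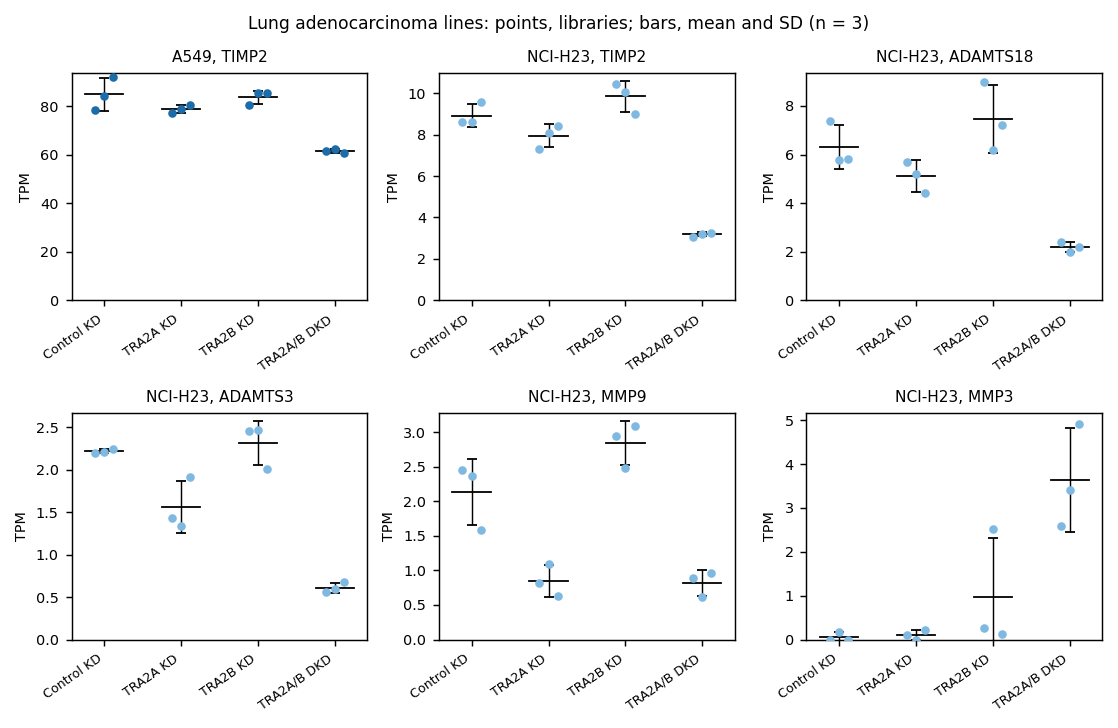
TPM of TIMP2 in A549 and of TIMP2, ADAMTS18, ADAMTS3, MMP9 and MMP3 in NCI-H23, by group, with each point a library and bars for mean and SD (n = 3). TIMP2 in NCI-H23 sits between 3.08 and 3.27 TPM in the DKD and at or above 7.33 TPM in the other groups.

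The fit also tested whether the DKD differed from the sum of both single knockdowns on the log2 scale, a non-additive part that is negative when the DKD lies lower than the sum. In A549 14.7% of all genes and 2 of 17 members were called. TIMP2 was -0.66 ± 0.11 away from additivity (limma, adjusted p = 0.00282, not called without scaling), and MMP7 -0.77 ± 0.23 (adjusted p = 0.0495). MMP7 was at 42.9 to 56.5 TPM in the single knockdowns and at 34.7 to 48.6 TPM in the DKD, with control libraries between 36.7 and 44.4 TPM. The MMP7 call was kept in only 4 of 19 alternative settings and was lost without the third control library, where 5 members and 22.2% of all genes were called. In NCI-H23 21.0% of all genes and 3 of 18 members were called: TIMP2 at -1.49 ± 0.15 (adjusted p = 0.00011), ADAMTS18 at -1.46 ± 0.25 (adjusted p = 0.00243) and ADAMTS3 at -1.31 ± 0.33 (adjusted p = 0.0173). The calls of TIMP2 and ADAMTS18 held under all 19 alternative settings and that of ADAMTS3 under all 18 in which it was tested. TIMP2 was thus called in both lines for the DKD and for its non-additive part, although its level differed, with 84.8 TPM in A549 control and 8.92 TPM in NCI-H23 control.

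Genes around the protease network were counted in the same libraries and read against the 30.6% (A549) and 43.2% (NCI-H23) of all genes that were called in the DKD. The AP-1 and ETS list, transcription factors known for MMP promoters, had 7 higher and 1 lower of 11 tested in the A549 DKD, with FOSB at a log2 fold change of 4.82, FOS at 3.58, JUN at 2.28, ETS1 at 1.36, FOSL1 at 1.28 and ETV5 at 1.04. The part of these factors in the levels of the members was not tested. In the NCI-H23 DKD 5 were higher and 2 lower of 11, with FOSB at 1.83. Of the plasminogen activation genes, which make plasmin, an activator of MMP zymogens, 2 were higher and 4 lower of 9 in the NCI-H23 DKD: the neural serpin SERPINI1 was at 1.62, whereas the activator PLAU was at -2.18 and its receptor PLAUR at -1.07. In A549 2 were higher of 9 and none was lower, a smaller share than over all genes. Of a list of other metalloprotease inhibitors, receptors and their relatives, 5 of 7 were lower in NCI-H23, with TFPI2 at -1.89 and SPOCK2 at -1.76. In A549 3 of 7 were lower (RECK, LRP1 and SPOCK1), each by less than 1 on the log2 scale. The proprotein convertases cleave the propeptides of ADAMTS and membrane-type MMP proteins. Of 4 tested, 1 was higher and 1 lower in the A549 DKD, and 2 were higher and 1 lower in NCI-H23. PCSK5 was higher in both DKDs (3.46 in A549, 1.51 in NCI-H23), and PCSK6 was lower in NCI-H23 (-1.27). The lower one in A549 was FURIN (-0.40), named after its value was seen.

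Related protease genes of the lung lines were mostly lower where they were called. In NCI-H23 the ADAM list, with 3 of 7 called, was near the 43.2% of all genes. The ADAMTS-like and substrate lists each had 1 called gene there, too few to read as a share. Of the ADAM list, the membrane-bound relatives, 4 of 9 were lower in the A549 DKD, with ADAM19 at -1.50, and in NCI-H23 1 was higher and 2 lower of 7, with ADAM9 at -1.14. Of the ADAMTS-like list, which has the ADAMTS ancillary domains without the protease, 2 of 4 were lower in A549 (PAPLN and THSD4, both at -1.18) and 1 of 4 in NCI-H23. No substrate gene of 3 tested was called in A549 and 1 in NCI-H23. Markers of epithelium and mesenchyme moved with the DKD as well. The summed epithelial list was at 9074 to 9294 TPM in A549 control and 7803 to 7906 TPM in the DKD, with 1 marker higher and 4 lower of 6 tested, and NKX2-1 was at 0 in every control library. In NCI-H23 it was at 1911 to 1977 TPM against 1375 to 1608 TPM, with 4 lower of 5, and SFTPC was at 0 in every control library. The summed mesenchymal list was at 1074 to 1223 TPM against 844 to 898 TPM in A549 (3 lower of 3) and at 1621 to 1645 TPM against 1141 to 1278 TPM in NCI-H23 (4 lower of 4). Their part in the changes of the members was not tested. In bulk RNA, fewer cells of a kind and less RNA per cell cannot be told apart.

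**Figure D3:**
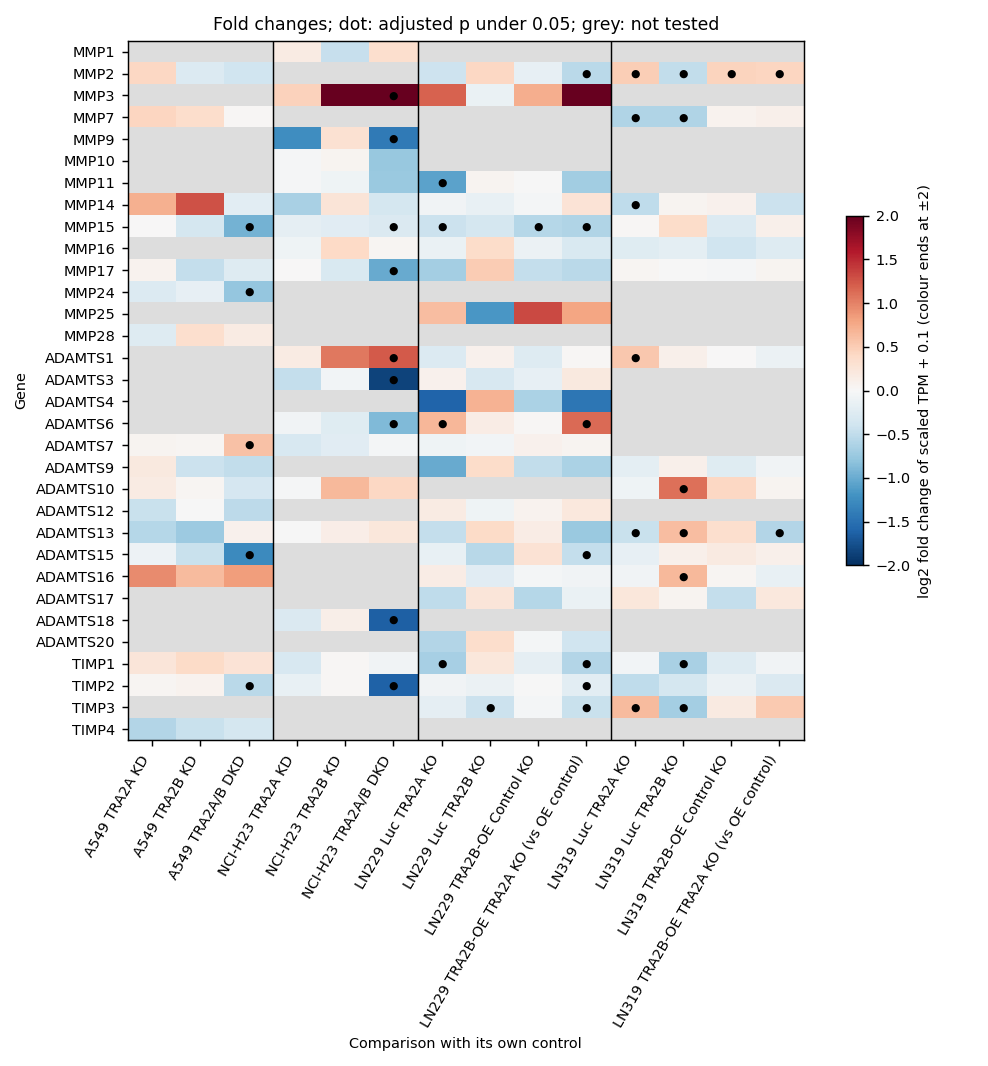
Log2 fold changes of the tested members (vertical axis) in the 14 comparisons with a control (horizontal axis), as colour that ends at 2 in either direction, with a dot for called values and grey for members not tested. In the NCI-H23 DKD the called values run from -1.85 (ADAMTS3) to 1.23 (ADAMTS1), apart from MMP3, whose controls are at or near 0.

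In the glioma lines the comparisons ask which members differ after knockout of either paralog, and whether added TRA2B changes the response to TRA2A KO. In LN229 the TRA2A KO and TRA2B KO are both compared with the same Luc Control KO libraries. In Luc TRA2A KO 4 of 23 members (17.4%) were called, where 3.68% of all genes were. TIMP1, MMP11 and MMP15 fell and ADAMTS6 rose. TIMP1 was at 1904, 1516 and 1413 TPM in control and 1100, 1093 and 825 TPM with TRA2A KO, with no overlap (log2 fold change -0.66 ± 0.14, limma, adjusted p = 0.0261). MMP11 (stromelysin 3, which is activated inside the cell by furin) was at 12.3, 7.09 and 6.54 TPM against 4.77, 4.09 and 2.91 TPM (-1.07 ± 0.23, adjusted p = 0.0287). MMP15 was at 37.0, 35.7 and 36.6 TPM against 27.2, 29.2 and 24.3 TPM (-0.42 ± 0.08, adjusted p = 0.0189), and ADAMTS6 at 3.17, 3.40 and 3.25 TPM against 4.73, 5.79 and 5.03 TPM (0.66 ± 0.14, adjusted p = 0.026).

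These 4 calls depended on single libraries, both of control and of TRA2A KO. Without the first Luc Control KO library limma called 0 of 23 members and 1.08% of all genes (and also 0 members without the third and 1 without the second Luc TRA2A KO library), although the log2 fold changes kept their sign at -0.54 (TIMP1), -0.80 (MMP11), -0.42 (MMP15) and 0.63 (ADAMTS6). That control library was the highest of the 3 for MMP2, MMP11, MMP17, ADAMTS4, ADAMTS9 and TIMP1. MMP2 was at 754, 550 and 571 TPM in control and 543, 453 and 389 TPM with TRA2A KO, without overlap but not called (-0.42 ± 0.14, adjusted p = 0.0997). ADAMTS4 (aggrecanase 1) was at 4.97, 2.16 and 2.24 TPM against 1.27, 0.742 and 0.699 TPM (-1.61 ± 0.44, adjusted p = 0.061). MMP14, at 171, 169 and 177 TPM in control, was at 141, 180 and 170 TPM with TRA2A KO (-0.06 ± 0.10, adjusted p = 0.762).

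In Luc TRA2B KO only TIMP3 was called, 1 of 23 members, where 0.568% of all genes were. It was at 415, 472 and 492 TPM in control and 341, 356 and 354 TPM with TRA2B KO (log2 fold change -0.43 ± 0.07, limma, adjusted p = 0.0252), and no libraries overlapped. Without the first control library 7 members were called (ADAMTS15, MMP2, MMP15, MMP16, MMP17, MMP25 and TIMP3), where 20.8% of all genes were, and MMP2 was then higher by 0.55 on the log2 scale. Without any 1 of the other 5 libraries of this comparison no member was called. With all libraries MMP2 was at 868, 878 and 807 TPM, above every control library, and was not called (0.42 ± 0.14, adjusted p = 0.118). TIMP2 was at 335, 339 and 354 TPM in control and at 317, 330 and 326 TPM with TRA2B KO (-0.12 ± 0.05, adjusted p = 0.154).

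TRA2B overexpression alone called 1 of 23 members, MMP15, where 1.03% of all genes were called. MMP15 was at 24.8, 27.2 and 23.8 TPM in TRA2B-OE Control KO, below all Luc controls (log2 fold change -0.57 ± 0.08, limma, adjusted p = 0.00795). With TRA2A KO on top it was at 15.8, 19.0 and 16.2 TPM, a further fall of 0.59 on the log2 scale (SE 0.08, adjusted p = 0.0021). This comparison of TRA2B-OE TRA2A KO with TRA2B-OE Control KO called 7 of 23 members (30.4%), where 6.07% of all genes were called. ADAMTS6 rose, from 2.92, 4.06 and 3.41 TPM to 7.24, 7.88 and 8.12 TPM (1.13 ± 0.14, adjusted p = 0.00156).

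The other 5 called members fell, and 3 of them were inhibitors. TIMP1 went from 1676, 1347 and 1358 TPM to 896, 1033 and 1035 TPM (-0.58 ± 0.14, limma, adjusted p = 0.0316). TIMP3 went from 450, 475 and 446 TPM to 364, 348 and 310 TPM (-0.45 ± 0.07, adjusted p = 0.00403). TIMP2 moved less, from 360, 345 and 346 TPM to 324, 307 and 293 TPM (-0.21 ± 0.05, adjusted p = 0.0244). Each of the 3 had no overlap between groups. MMP2 went from 670, 561 and 494 TPM to 414, 406 and 380 TPM (-0.54 ± 0.14, adjusted p = 0.0372) and ADAMTS15 from 14, 16.1 and 13.9 TPM to 9.59, 11.4 and 11.1 TPM (-0.47 ± 0.12, adjusted p = 0.0409). The calls of ADAMTS6, MMP15 and TIMP3 held in all 14 alternative settings, whereas those of ADAMTS15, MMP2 and TIMP1 held in 5 of 14 each and that of TIMP2 in 7 of 14. These changes stood beside a TRA2A RNA level of 87.2% of the TRA2B-OE control. The test of whether the TRA2A KO response differed between TRA2B-OE and Luc called 0 of 23 members and 0.00% of all genes (limma), with 4 members at an unadjusted p under 0.05.

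In LN319 the Luc TRA2A KO called 6 of 16 members (37.5%), where 14.3% of all genes were called. MMP2, TIMP3 and ADAMTS1 rose and MMP14, MMP7 and ADAMTS13 fell. MMP2 was at 42.2, 41.1 and 37.9 TPM in control and 57.6, 56.2 and 51.6 TPM with TRA2A KO (log2 fold change 0.49 ± 0.07, limma, adjusted p = 0.00129). Its activator MMP14 was at 109, 124 and 97.7 TPM against 73.8, 81.4 and 69.0 TPM (-0.51 ± 0.11, adjusted p = 0.00799), so the protease and its activator moved apart, each without overlap between groups. TIMP3 was at 169, 179 and 201 TPM against 245, 250 and 347 TPM (0.64 ± 0.14, adjusted p = 0.00848). Its highest value came from the third TRA2A KO library, and without it the log2 fold change was 0.44 and still called.

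The remaining calls of that comparison were members at lower levels. MMP7, one of the 2 cluster genes with the AP-1 and TATA motifs shown, was at 14.8, 15.7 and 21.0 TPM in control and 10.6, 10.4 and 11.6 TPM with TRA2A KO (-0.60 ± 0.15, limma, adjusted p = 0.0213). ADAMTS1 was at 11, 11.7 and 12.2 TPM against 17.0, 18.3 and 14.4 TPM (0.54 ± 0.12, adjusted p = 0.013). ADAMTS13, the protease of von Willebrand factor, was at 9.56, 8.0 and 7.15 TPM against 6.54, 6.02 and 5.06 TPM (-0.44 ± 0.13, adjusted p = 0.0439), a call kept in 7 of 14 settings. TIMP2 was at 334, 343 and 387 TPM against 223, 228 and 278 TPM, which did not overlap and was not called (-0.51 ± 0.18, adjusted p = 0.0811). The mesenchymal list had sums of 3540 to 3789 TPM in control and 3083 to 3489 TPM with TRA2A KO. Of its 4 tested markers 3 were lower, where 14.3% of all genes were called, and 1 epithelial marker was higher and 1 lower of 6. The part of these markers was not tested.

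The Luc TRA2B KO of LN319 called 7 of 16 members (43.8%), near the 42.6% of all genes. TIMP1, TIMP3, MMP2 and MMP7 fell and ADAMTS10, ADAMTS13 and ADAMTS16 rose, and all 7 calls held in each of 14 alternative settings. TIMP1 was at 324, 337 and 266 TPM in control and at 215, 193 and 224 TPM with TRA2B KO (log2 fold change -0.66 ± 0.11, limma, adjusted p = 0.00064). TIMP3 was at 121, 127 and 122 TPM (-0.67 ± 0.14, adjusted p = 0.00171), below every control library, whereas TRA2A KO had put it above every control library. MMP2 was at 29.8, 34.4 and 29.1 TPM (-0.49 ± 0.07, adjusted p = 0.000301), also on the other side of control from TRA2A KO. MMP7 was at 12.3, 12.6 and 11.3 TPM (-0.60 ± 0.15, adjusted p = 0.0075).

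The 3 ADAMTS genes rose without overlap. ADAMTS10 was at 8.76, 9.60 and 9.79 TPM in control and at 23.8, 22.3 and 19.5 TPM with TRA2B KO (1.1 ± 0.13, limma, adjusted p = 6.65e-05). ADAMTS16, a protease known to cut fibronectin, was at 26.6, 31.5 and 36.5 TPM against 51.6, 55.0 and 51.9 TPM (0.65 ± 0.13, adjusted p = 0.00202). ADAMTS13 was at 13.2, 14 and 13.6 TPM (0.62 ± 0.13, adjusted p = 0.00247). The sum of all 19 ADAMTS genes was 129 ± 1.22 TPM with TRA2B KO and 84.8 ± 5.54 TPM in control. The share of mitochondrially encoded transcripts was 18.3 to 20.6% in these TRA2B KO libraries and 12.1 to 12.8% in the Luc controls, and its part in the changes was not tested. Of the epithelial markers 5 of 6 tested were lower, where 42.6% of all genes were called, with sums of 298 to 313 TPM against 364 to 377 TPM in control. Of the mesenchymal list 2 of 4 were lower, near that share, with sums of 2514 to 2654 TPM against 3540 to 3789 TPM. Their part was not tested either.

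TRA2B overexpression in LN319 called 1 of 16 members, where 4.31% of all genes were called. This was MMP2, at 64.7, 61.4 and 50.4 TPM in TRA2B-OE Control KO, above all Luc controls (0.45 ± 0.07, limma, adjusted p = 0.00953). TRA2A KO in TRA2B-OE cells called 2 of 16, where 2.77% of all genes were called. MMP2 rose again, to 79.0, 78.9 and 70.5 TPM (0.43 ± 0.07, adjusted p = 0.0145). ADAMTS13 fell, from 11.9, 9.02 and 12.6 TPM to 6.82, 7.08 and 7.34 TPM (-0.58 ± 0.13, adjusted p = 0.0399). These calls were kept in 10 (MMP2) and 7 (ADAMTS13) of 14 alternative settings, and no member was called without the third TRA2B-OE control library or without the first or second TRA2B-OE TRA2A KO library. TIMP3, at 228, 235 and 202 TPM in the TRA2B-OE control, was at 307, 287 and 328 TPM, which did not overlap and was not called (0.53 ± 0.14, adjusted p = 0.0569). The difference between the TRA2B-OE and Luc responses to TRA2A KO called 0 of 16 members and 0.0207% of all genes (limma), with 3 members at an unadjusted p under 0.05.

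**Figure D4:**
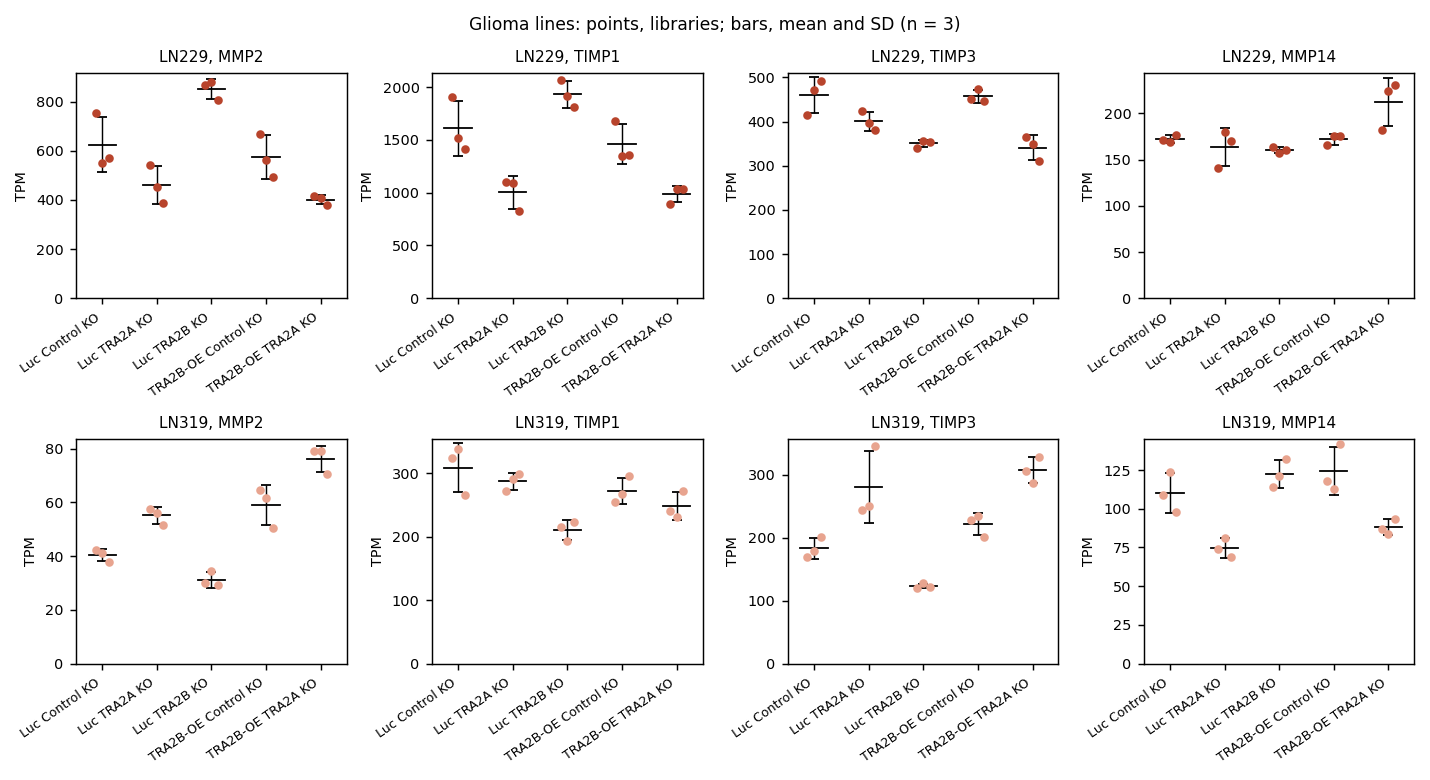
TPM of MMP2, TIMP1, TIMP3 and MMP14 in LN229 and LN319, by group, with each point a library and bars for mean and SD (n = 3). MMP2 in LN319 is highest in TRA2B-OE TRA2A KO (70.5 to 79.0 TPM) and lowest in Luc TRA2B KO (29.1 to 34.4 TPM).

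The knockouts of the paralogs were also compared with each other, as Luc TRA2B KO against Luc TRA2A KO, a comparison added after the values had been seen. Its log2 fold changes set no control library against another group. The filter, the scaling and the spread behind its p-values came from all libraries of the line, controls included. Only knockout libraries were left out in turn for it. In LN229 it called 14 of 23 members (60.9%), where 34.1% of all genes were called, with 10 higher and 4 lower in TRA2B KO. MMP2 was higher (807 to 878 TPM against 389 to 543 TPM, log2 fold change 0.83 ± 0.14, limma, adjusted p = 0.00111). TIMP1 was higher as well (1816 to 2070 TPM against 825 to 1100 TPM, 0.89 ± 0.14, adjusted p = 0.000983). MMP17 was at 113, 120 and 116 TPM against 60.2, 46.8 and 40.9 TPM (1.19 ± 0.21, adjusted p = 0.00177), and ADAMTS4 at 5.19, 5.05 and 4.48 TPM against 1.27, 0.742 and 0.699 TPM (2.30 ± 0.44, adjusted p = 0.00245). The other higher members were ADAMTS9, MMP11, ADAMTS20, ADAMTS13, ADAMTS17 and MMP16, with log2 fold changes from 0.50 to 1.37. The lower ones were MMP25 (-1.78), a leukocyte membrane-type protease, and ADAMTS6 (-0.51), ADAMTS15 (-0.40) and TIMP3 (-0.25). MMP25 passed the filter through 6 TRA2B-OE libraries, which are in neither group compared, and 2 Luc TRA2A KO libraries. The less stable calls were those of ADAMTS17, kept in 7 of 14 alternative settings, ADAMTS13 (8 of 13), ADAMTS15 (9 of 14) and TIMP3 (10 of 14).

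In LN319 the same comparison called 10 of 16 members (62.5%), where 47.2% of all genes were called, with 6 higher and 4 lower in TRA2B KO. MMP2 was lower there (-0.97 ± 0.07, limma, adjusted p = 1.78e-06), as was TIMP1 (-0.60 ± 0.11, adjusted p = 0.000834), each the opposite direction from LN229. TIMP3 was lower (-1.31 ± 0.14, adjusted p = 1.12e-05), the direction it had in LN229. MMP14 was higher, at 114, 121 and 132 TPM against 73.8, 81.4 and 69.0 TPM (0.57 ± 0.11, adjusted p = 0.000841). ADAMTS10, ADAMTS13, ADAMTS16, ADAMTS9 and ADAMTS15 were higher by 0.27 to 1.20, and ADAMTS1 was lower (-0.44) with overlapping groups. The calls of ADAMTS9 and ADAMTS1 were kept in 10 and 12 of 14 alternative settings. Over all genes tested in both lines, 8.29% had groups that did not overlap in either line and moved in opposite directions. Of 14 members 4 did so (ADAMTS15, ADAMTS16, MMP2 and TIMP1). The difference between the lines was not tested.

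Glial markers differed between these knockouts in LN229. Their sum was 631 to 1203 TPM in Luc control and 1299 to 1382 TPM in TRA2B KO. In TRA2A KO it was 433 to 642 TPM, which overlapped control. Against control 1 of 6 tested was called with TRA2A KO, where 3.68% of all genes were. With TRA2B KO 0 of 6 were called, where 0.568% were. In TRA2B KO against TRA2A KO 4 of 6 were higher, where 34.1% of all genes were called. S100B alone ran from 56.5 to 1035 TPM over the LN229 libraries. In LN319 the sums were 388 to 433 TPM in Luc control, 330 to 369 in TRA2A KO and 497 to 508 in TRA2B KO. There 3 were higher and 1 lower of 4 in TRA2B KO than in TRA2A KO, where 47.2% of all genes were called. The part of these markers in the changes of the members was not tested. A2M, the plasma inhibitor that traps proteases of all classes, fell in all 4 TRA2A KO comparisons, by 1.75 and 2.05 on the log2 scale in LN229 and by 2.21 and 1.27 in LN319 (Luc and TRA2B-OE). In LN319 it also fell by 1.47 with TRA2B KO. Of the ADAMTS substrates, THBS2 was at -1.04 and -1.12 in LN229 TRA2A KO (Luc and TRA2B-OE) and at -1.48 in LN319 Luc TRA2A KO, while THBS1 was at 1.69 and 1.21 in LN319 TRA2A KO (Luc and TRA2B-OE). Of 4 convertases tested in LN319, 1 was higher and 0 lower with Luc TRA2A KO, and 1 was higher and 2 lower with Luc TRA2B KO. PCSK5 was at 1.57 with TRA2A KO and 1.16 with TRA2B KO in this line. In Luc TRA2A KO 3 of 11 AP-1 and ETS genes were called in LN229, where 3.68% of all genes were, and 5 of 11 in LN319, where 14.3% were. In Luc TRA2B KO 2 of 11 were called in LN229, where 0.568% of all genes were, and 4 of 11 in LN319, fewer than the 42.6% of all genes.

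The summed TPM of the TIMPs over that of the MMPs gave the balance of inhibitor and protease transcripts in each library. It was 2.31 ± 0.485 in A549 control, with libraries at 2.51, 2.66 and 1.76, and 2.89 ± 0.223 in the DKD, with its lowest library at 2.63. In NCI-H23 it was 5.90 ± 0.781 in control and 7.29 ± 1.06 in the DKD, where 6.52 was the highest control and 6.51 the lowest DKD. The library ranges thus overlapped in both lung lines. In LN229 it was 2.45 ± 0.18 in Luc control, 2.26 ± 0.0912 with TRA2A KO and 2.08 ± 0.0755 with TRA2B KO, where the TRA2B KO libraries (2.03 to 2.17) lay under all controls (2.28 to 2.64). In LN319 it was 2.84 ± 0.140 in Luc control and 2.06 ± 0.117 with TRA2B KO, with ranges of 2.70 to 2.98 and 1.95 to 2.18. TRA2A KO in LN319 had 3.01 ± 0.541, of which 1 library was at 3.63. The TRA2B-OE TRA2A KO libraries of LN229 (2.19 to 2.26) also lay under their own controls (2.43 to 2.68). In LN319 these groups overlapped (2.34 to 3.03 against 2.25 to 2.71). The ratio is one of transcripts, was not tested, and says nothing of active protein. In LN229 the MMP sum was mostly MMP2, and in LN319 mostly MMP17 and MMP14.

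**Figure D5:**
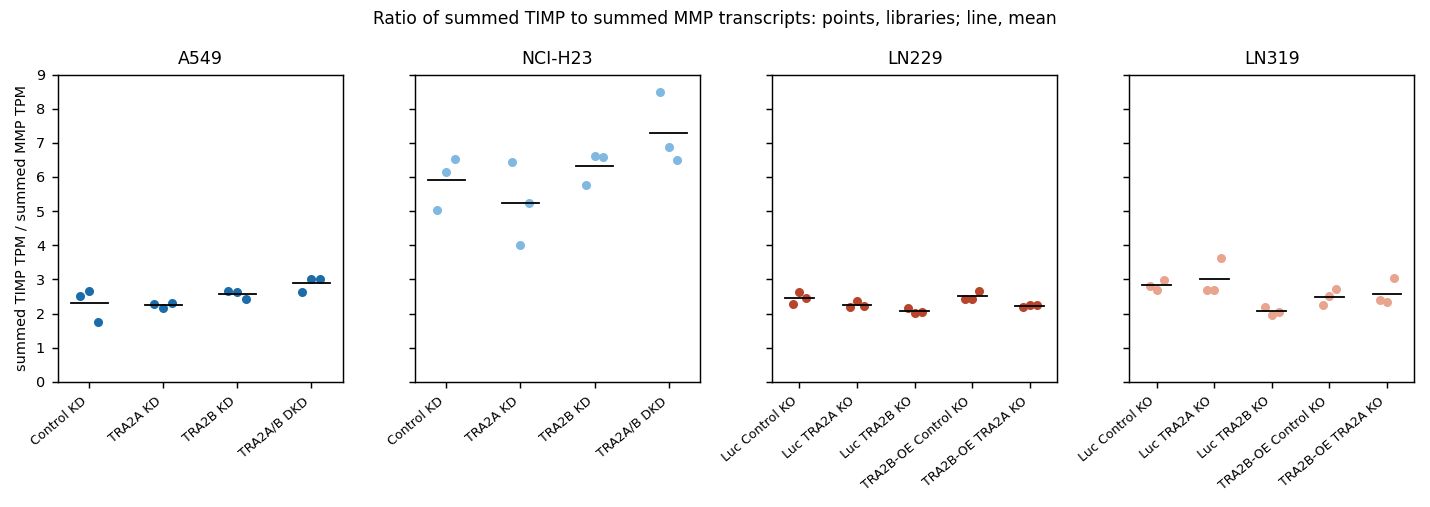
Ratio of summed TIMP to summed MMP TPM in every library, by line and group, with each point a library and the mean marked. TRA2B KO lies under the Luc controls in both glioma lines, at 2.03 to 2.17 in LN229 and 1.95 to 2.18 in LN319. TRA2B-OE TRA2A KO lies under its own control in LN229 too, at 2.19 to 2.26.

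Members that reached 1 TPM in some libraries but in too few to be tested are described by their values, with no test. In some comparisons between 2 groups the libraries of such a member did not overlap, whereas TIMP3 in A549 overlapped in every one. How often genes at large fail to overlap at these levels was not counted. Those described were chosen after their values were seen. MMP1 was at 0.261, 0.187 and 0.187 TPM in LN229 TRA2B-OE Control KO and at 1.15, 1.19 and 1.19 TPM in TRA2B-OE TRA2A KO. In LN319 it was at 0.543, 0.484 and 0.613 TPM and at 2.36, 1.48 and 1.57 TPM in the same groups, so the TRA2A KO libraries lay above the TRA2B-OE controls in both lines. Its neighbour MMP3, which passed the filter in LN229 through these 3 TRA2A KO libraries and 1 Luc TRA2A KO library, was at 0.103, 0.810 and 0.475 TPM against 1.53, 1.93 and 2.33 TPM there and was not called (2.05 ± 0.67, limma, adjusted p = 0.0911). In A549 ADAMTS8 was at 0.938, 0.767 and 1.43 TPM in control and 0.0706, 0.162 and 0.149 TPM in the DKD. MMP19 was at 0.416, 0.576 and 0.902 TPM in A549 control, at 0.0769, 0 and 0.0304 TPM with TRA2A KD and at 0.0368, 0.0102 and 0.0530 TPM in the DKD. ADAMTS6 was under 0.18 TPM in A549 control and at 0.662, 1.45 and 0.647 TPM in the DKD, the direction opposite to NCI-H23, where it fell.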

How the data were processed

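Poly-A RNA-seq libraries (directional, paired 150 bp reads) of 54 samples were quantified by the authors with kallisto 0.48.0 against Gencode v34 (GRCh38), and gene-level TPM were deposited as 1 table per cell line. STAR 2.7.3 is also listed in the processing notes. No read counts are used, and read depth per library is unknown; deposited TPM summed to 928908 to 964610 per library.

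Members and gene lists were chosen with earlier results of these data known. A gene was tested in a line where 4 or more libraries reached 1 TPM, which left 19303 genes for LN319, 18490 for LN229, 16405 for A549 and 16293 for NCI-H23. TPM were scaled by unweighted trimmed means (30% of ratios, 5% of abundances), a pseudocount of 0.1 was added, and log2 values were fitted with limma 3.58.1 in R 4.3.3 (trended empirical Bayes, 1 fit per line), with Benjamini-Hochberg adjustment over all genes. Named genes were TRA2A, TRA2B, the TIMPs, MMP2, MMP9, MMP14, every called member, the 5 highest members per control, and list genes called beyond 1 on the log2 scale; others are said to be chosen after their values were seen. Some genes that the rule covers are not reported here. The fit was tested on simulated data. Pseudocounts, filters, scalings, blocks, the groups fitted, a fold limit and left-out replicates were varied. Promoters came from RefSeq (GRCh38.p14), and figures were drawn with matplotlib 3.10.9.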

Additional observations from a re-analysis of the deposited data

Results flagged for a closer look

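In the lung lines 4 members made 5 calls for a difference from the sum of both single knockdowns in the test of the non-additive part (limma, adjusted p as given for each in the results). These were TIMP2 (-0.66) and MMP7 (-0.77) in A549, and TIMP2 (-1.49), ADAMTS18 (-1.46) and ADAMTS3 (-1.31) in NCI-H23, all on the log2 scale and all lower in the DKD than the sum. They were 11.8% of the members tested in A549, where 14.7% of all genes were called, and 16.7% in NCI-H23, where 21.0% were. MMP7 in A549 was the only one of the 5 whose DKD libraries overlapped the control libraries, and its call was kept in 4 of 19 alternative settings.

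Between the glioma lines, the comparisons with a control held 7 member and comparison pairs with opposite directions and no overlap of groups in either line. Log2 fold changes are given for LN229 and then LN319. MMP2 was at -0.42 and 0.49 with Luc TRA2A KO, at 0.42 and -0.49 with Luc TRA2B KO, and at -0.54 and 0.43 with TRA2B-OE TRA2A KO. MMP2 was thus on opposite sides of its control in all 3 knockout comparisons of these lines. TIMP3 was at -0.45 and 0.53 and MMP14 at 0.27 and -0.43 with TRA2B-OE TRA2A KO. ADAMTS15 was at -0.55 and 0.10 and MMP15 at -0.35 and 0.37 with Luc TRA2B KO. Over all genes tested in both lines the share with such opposite groups was 2.08% for Luc TRA2A KO (1 of 14 members), 3.78% for Luc TRA2B KO (3 of 14), 0.828% for TRA2B-OE (0 of 14) and 1.73% for TRA2B-OE TRA2A KO (3 of 14). Of the 14 member values, 5 were called. The differences between the lines were not tested, and only MMP2 with TRA2B-OE TRA2A KO was called in both.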

How the results depend on the processing

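No called value reversed under any setting. Of 72 called member values, 72 kept their call with a pseudocount of 0.5 and of 1, 57 with no filter, 66 without scaling, 64 with quantile normalization, 60 of 61 with a minimum of 5 TPM, 47 of 63 with a fit restricted to the compared groups, 22 with a log2 fold change above 1 also required, and 363 of 459 over left-out replicates. The causes were not tested beyond what each setting changes by construction. The labels do not say whether equal replicate numbers mark paired samples, and the reported fits use no replicate block. Same-numbered libraries had median correlations of their deviations between -0.0132 and 0.0262, and the highest single correlation was 0.212, in LN229. Libraries that correlated best with their own number were 5 of 12 (A549), 7 of 12 (NCI-H23), 8 of 15 (LN229) and 5 of 15 (LN319). With the replicate block 70 of 72 values kept their call. Counts of called members became 1 for the A549 non-additive part, 8 for LN229 Luc TRA2A KO and 5 for LN229 Luc TRA2B KO. Of all genes, 11.6%, 8.57% and 7.01% were then called, against 14.7%, 3.68% and 0.568% without the block. In these LN229 comparisons the block thus raised the share of genes called.

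Counts of called members moved beyond 1.5 times in the following, with the share of all genes called in brackets. A549 DKD (5) gave 10 with no filter (13.7%) and 1 with the fold limit (12.8%), and its non-additive part (2) gave 1 without scaling (13.8%) and 0 with the fold limit (7.72%). NCI-H23 DKD (9) gave 3 with 5 TPM (52.8%) and 5 with only the groups compared (42.4%). LN229 Luc TRA2A KO (4) gave 0 with no filter (0.527%), 0 with only the groups compared (0%) and 1 with the fold limit (0.687%). LN229 Luc TRA2B KO (1) gave 0 with no filter (0.06%), 2 with 5 TPM (1.5%), 2 with quantile normalization (1.2%), 0 with only the groups compared (0%) and 0 with the fold limit (0.135%). LN229 TRA2B-OE (1) gave 0 with only the groups compared (0.0122%) and 0 with the fold limit (0.297%), and TRA2B-OE TRA2A KO (7) gave 4 with quantile normalization (6.54%), 3 with only the groups compared (1.51%) and 1 with the fold limit (1.1%). LN319 Luc TRA2A KO (6) gave 0 (1.88%) and Luc TRA2B KO (7) gave 1 (3.92%) with the fold limit. LN319 TRA2B-OE (1) gave 2 with 5 TPM (7.38%), 2 without scaling (4.7%), 0 with only the groups compared (0.21%) and 0 with the fold limit (0.694%). LN319 TRA2B-OE TRA2A KO (2) gave 1 with no filter (0.682%), 4 with 5 TPM (5.55%), 4 without scaling (3.23%), 4 with quantile normalization (3.28%), 0 with only the groups compared (0%) and 0 with the fold limit (0.233%). The added TRA2B KO against TRA2A KO comparisons, chosen after seeing the data, gave 5 in LN229 (14) and 3 in LN319 (10) with the fold limit (7.41% and 6.34%). Fitting only the groups compared was not run for non-additive parts, which use all groups.

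Leaving out 1 replicate at a time, counts ranged from 0 to 0 for each single knockdown, 4 to 6 for the A549 DKD, 1 to 5 for its non-additive part (5 without Control KD replicate 3), 7 to 9 for the NCI-H23 DKD and 3 to 4 for its non-additive part. In LN229 they were 0 to 4 (Luc TRA2A KO, 0 without Luc Control KO replicate 1 or Luc TRA2A KO replicate 3), 0 to 7 (Luc TRA2B KO, 7 without Luc Control KO replicate 1), 1 to 1 (TRA2B-OE), 3 to 6 (TRA2B-OE TRA2A KO, 3 without TRA2B-OE Control KO replicate 1 or 2 or TRA2B-OE TRA2A KO replicate 2 or 3), 0 to 0 (difference) and 10 to 12 (added). In LN319 they were 3 to 5, 7 to 7, 1 to 1, 0 to 2, 0 to 0 and 9 to 11 in the same order, with 3 without Luc TRA2A KO replicate 2 and, for TRA2B-OE TRA2A KO, 0 without TRA2B-OE Control KO replicate 3 or TRA2B-OE TRA2A KO replicate 1 or 2.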
